A study of Homo sapiens with 12 samples.

Results

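The genes described here are the cyclins, kinases and inhibitors that act in G1 phase and the pocket proteins they control: CCND1, CCND3, CDK2, CDK4, CDK6, CDKN1B, CDKN2C, CDKN2D, RB1 and RBL1. They were chosen by symbol, and all 10 had a row among the 26334 genes of the count tables and passed the filter that left 15352 genes for testing. The libraries were made from A549, a human lung adenocarcinoma line, after lentiviral delivery of a control shRNA (shControl) or of an shRNA against RNF113A (shRNF113A), a component of the spliceosome with a ubiquitin ligase domain. All cells, controls included, were selected with puromycin at 1 ug/ml for 4 days. Some cells of each kind then received Cisplatin, a platinum drug that crosslinks DNA, at 25 ug/ml for 20 h, while the others stayed untreated. Each of the 4 conditions, untreated control, Cisplatin-treated control, untreated depleted and Cisplatin-treated depleted cells, had 3 biological replicates, so there were 12 libraries. The labels describe infected and selected populations of a single line, and no clones.

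In G1, mitogens raise the D-type cyclins CCND1 and CCND3, which bind CDK4 and CDK6. These kinases, and later CDK2 with cyclin E, phosphorylate the pocket proteins RB1 and RBL1 (p107), which then release E2F transcription factors so that genes for DNA replication are expressed. CDKN2C (p18) and CDKN2D (p19) are INK4 inhibitors that bind CDK4 and CDK6, and CDKN1B (p27) is an inhibitor of the CIP and KIP family that binds cyclin and CDK complexes. After DNA damage, p53 raises CDKN1A (p21), another inhibitor of that family, and the cycle is held.

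Depth ranged from 26220526 to 45721152 read pairs assigned to genes per library, and the lowest count of any member in a library was 189, for CDKN2D. Epithelial keratins and adhesion genes fixed as markers of the line summed to 4615 to 15916 CPM (counts scaled by library size) per library. KRT7, KRT8 and KRT18 made up most of it, whereas KRT19 had 0.67 to 5.32 CPM and EPCAM 3.66 to 97.6 CPM. The sum was lower in control replicate 2, at 8522 CPM beside 15000 and 14358 untreated and 4615 CPM beside 6597 and 6136 with Cisplatin. The 3 endothelial markers each stayed under 1 CPM, and 3 of 5 fibroblast and 3 of 5 immune markers did too. Summed fibroblast markers were at 6.06 to 8.01 CPM in 10 libraries and higher in replicate 2 of the control cells, where COL1A1, a collagen gene, alone had 34.9 CPM untreated and 14.0 CPM with Cisplatin. Summed immune markers, nearly all of it CD68, ranged from 30.6 to 76.8 CPM. The immune sums were highest in Cisplatin-treated depleted cells, at 58.0 to 76.8 CPM, and the part of either list in the results was not tested. These are bulk libraries, in which fewer cells of a kind and less RNA per cell cannot be told apart. RNF113A itself stood at 20.3, 19.5 and 19.8 CPM in untreated control cells and at 15.3, 15.8 and 16.8 CPM in untreated depleted cells, so the groups did not overlap. After Cisplatin it was at 31.5, 28.9 and 27.7 CPM in control and 25.8, 24.3 and 29.9 CPM in depleted cells, which overlapped. The depletion was thus small at the level of its own mRNA: log2 fold change -0.31 ± 0.09 (SE, adjusted p = 0.0247) in untreated cells and -0.14 ± 0.09 (adjusted p = 0.233) in Cisplatin-treated cells. The first of these calls was lost when untreated replicate 1 or 3 of the control or replicate 1 or 2 of the depleted cells was left out. The paper assessed the depletion in A549 cells by western blot of the protein, which these libraries do not measure.

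Replicate 2 of the control cells, the libraries with the high COL1A1, stood apart in both treatments. Among the 9779 genes whose mean level reached 10 CPM, 194 were at least 2-fold above or below both other replicates in untreated control replicate 2 and 133 in Cisplatin-treated control replicate 2, against 0 to 7 in the other 10 libraries. Of the 194 genes, 96 stood apart in the same direction in both libraries. CDK6 was one of these genes: it was 3.65-fold below the mean of replicates 1 and 3 in untreated control replicate 2 and 3.31-fold below it in Cisplatin-treated control replicate 2. CCND1 was 2.46-fold lower in the untreated one, and CDKN1B 1.51-fold lower in the untreated and 1.19-fold lower in the treated one. What set these libraries apart is not given in the sources used here. Every change of a member's level in CPM below is therefore given with all 12 libraries and, where the call differs, without the pair of control replicate 2 libraries, an alternative added after the data were seen.

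Per kilobase of exon (reads within exons scaled by library size and exon length, RPKM), CCND3, CDK4 and CCND1 were the most abundant members and CDKN2D the least. In untreated control cells the mean was 116 ± 7.79 (SD, n = 3) RPKM over exons for CCND3, 86.2 ± 8.25 for CDK4, 67.2 ± 27.0 for CCND1 and 38.6 to 42.3 over the 3 libraries for CDK2. The pocket proteins RB1 and RBL1 stood at 12.8 ± 0.88 and 10.2 ± 0.82, CDKN1B at 11.5 ± 2.19, CDKN2C at 9.06 ± 0.25, CDK6 at 7.83 ± 4.22 and CDKN2D at 4.42 ± 0.04. Levels below are in CPM and compare a gene only with itself. CCND2, the third D-type cyclin, had 0 to 0.0748 CPM over the 12 libraries, and CDKN2A, the INK4 gene for p16, had no count in any library, so neither could be tested.

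**Figure D1:**
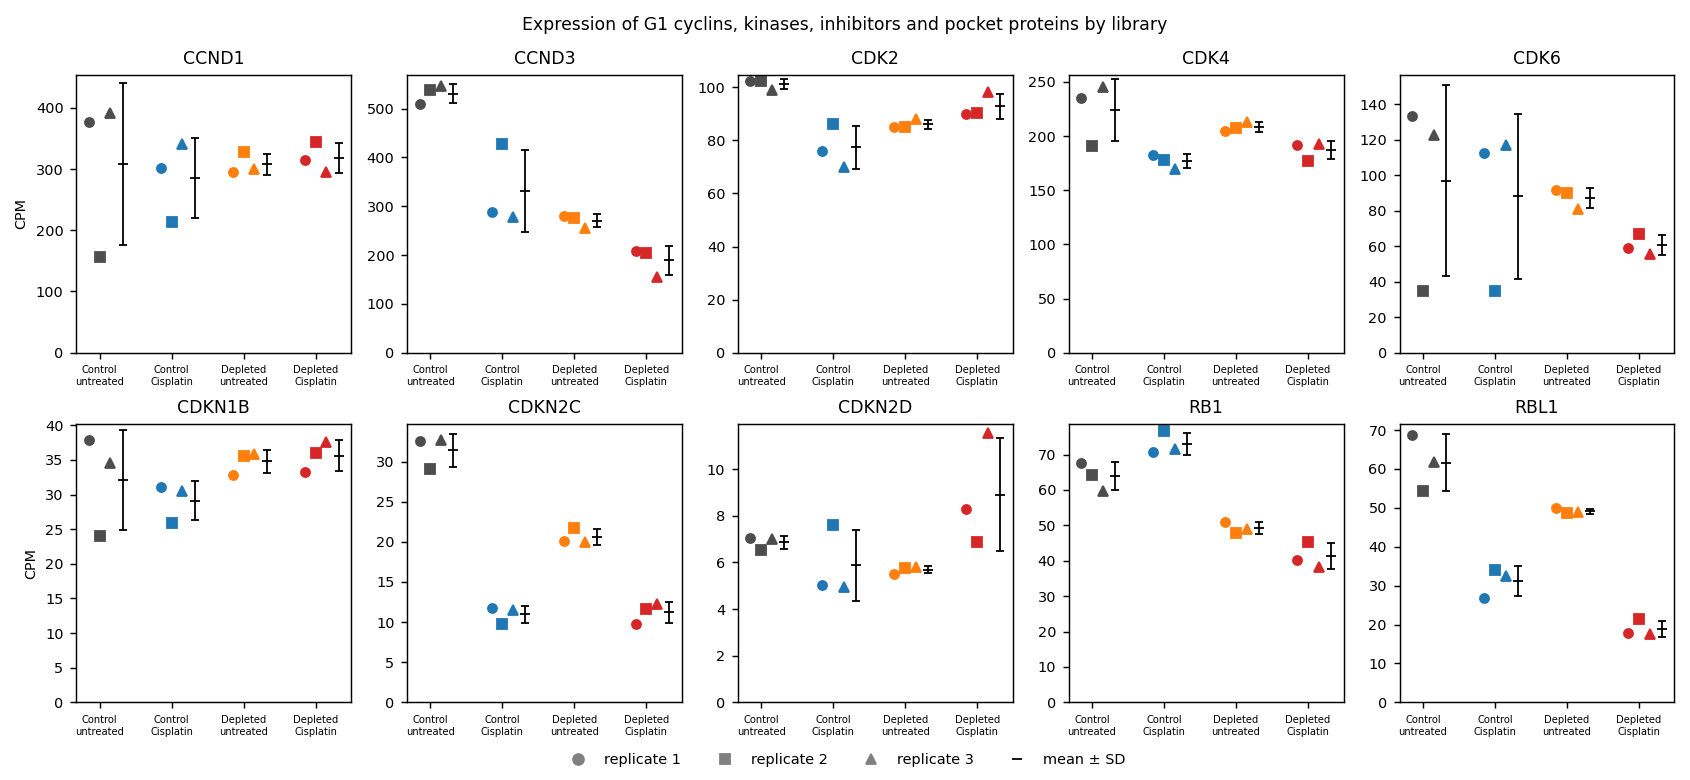
Expression of the 10 members in CPM (vertical axes, linear, from 0) in each of the 12 libraries; symbols mark replicates 1, 2 and 3 and black bars the mean ± SD of each condition. CDK6 in both control replicate 2 libraries lies near 35 CPM, far below replicates 1 and 3, whereas CDKN2C and RBL1 drop with Cisplatin in every replicate.

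The first question was how Cisplatin changed these genes in control cells. The members that fell were CCND3, CDK2, CDK4, CDKN2C and RBL1, 5 of 10 at an adjusted p under 0.05, and none rose. In this comparison 55% of all genes passed and 27% were lower. CDKN2C fell most. It had 32.6, 29.0 and 32.6 CPM in untreated and 11.7, 9.72 and 11.5 CPM in Cisplatin-treated control cells, a log2 fold change of -1.52 ± 0.11 (adjusted p = 2.43e-07). The Cisplatin-treated libraries were all low and the groups did not overlap. RBL1 had 68.8, 54.2 and 61.8 CPM before and 26.9, 34.1 and 32.5 CPM after the drug (log2 -0.98 ± 0.11, adjusted p = 1.51e-05). Here too, no treated library reached the lowest untreated one. With all libraries, CDKN2C was the single member to pass both the p threshold and a fold change of at least 2 in control cells, a rule that 19.8% of all genes met. RBL1 met it too without both control replicate 2 libraries (log2 -1.14 ± 0.11, adjusted p = 1.33e-07), beside 3172 of 15459 genes.

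CCND3, a D-type cyclin, had 509, 537 and 546 CPM in untreated and 288, 427 and 278 CPM in Cisplatin-treated control cells (log2 -0.68 ± 0.15, adjusted p = 0.00233). Replicate 2 was the highest of the treated libraries, and the fall was larger without both control replicate 2 libraries (log2 -0.90 ± 0.11). CDK2 went from 102, 102 and 99.0 CPM to 76.1, 86.2 and 70.1 CPM (log2 -0.39 ± 0.08, adjusted p = 0.00109). CDK4, the partner of the D-type cyclins, went from 235, 191 and 245 CPM to 183, 178 and 170.0 CPM (log2 -0.34 ± 0.09, adjusted p = 0.00564). In both kinases the conditions did not overlap, although untreated replicate 2 of CDK4 lay close to the treated libraries. RB1 moved the other way: 67.5, 64.3 and 59.7 CPM became 70.8, 76.6 and 71.6 CPM without overlap. Its log2 difference of 0.19 ± 0.08 missed the threshold (adjusted p = 0.0555). It passed with the replicate number as a block among the control libraries (log2 0.19 ± 0.08, adjusted p = 0.0335). Among these libraries the number set apart replicate 2 only.

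CCND1, CDK6, CDKN1B and CDKN2D were not called in control cells with all libraries. CCND1 had 377, 156 and 392 CPM untreated and 302, 214 and 341 CPM after Cisplatin, so replicate 2 was low in both and the groups overlapped. Without both control replicate 2 libraries, CCND1 (log2 -0.26 ± 0.09, adjusted p = 0.0173), CDKN1B (-0.24 ± 0.09, adjusted p = 0.0276) and CDKN2D (-0.49 ± 0.18, adjusted p = 0.0301) were lower as well. The count of members that passed, all of them lower, then rose from 5 to 8, while the share of all genes that passed in either direction rose to 60.9%. CDKN2D had 6.52 to 7.05 CPM untreated and 5.02, 7.63 and 4.96 CPM treated, with replicate 2 the one treated library above all untreated ones. CDK6 had 133, 35.0 and 123 CPM untreated and 113, 34.7 and 117 CPM treated, and did not pass either way.

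**Figure D2:**
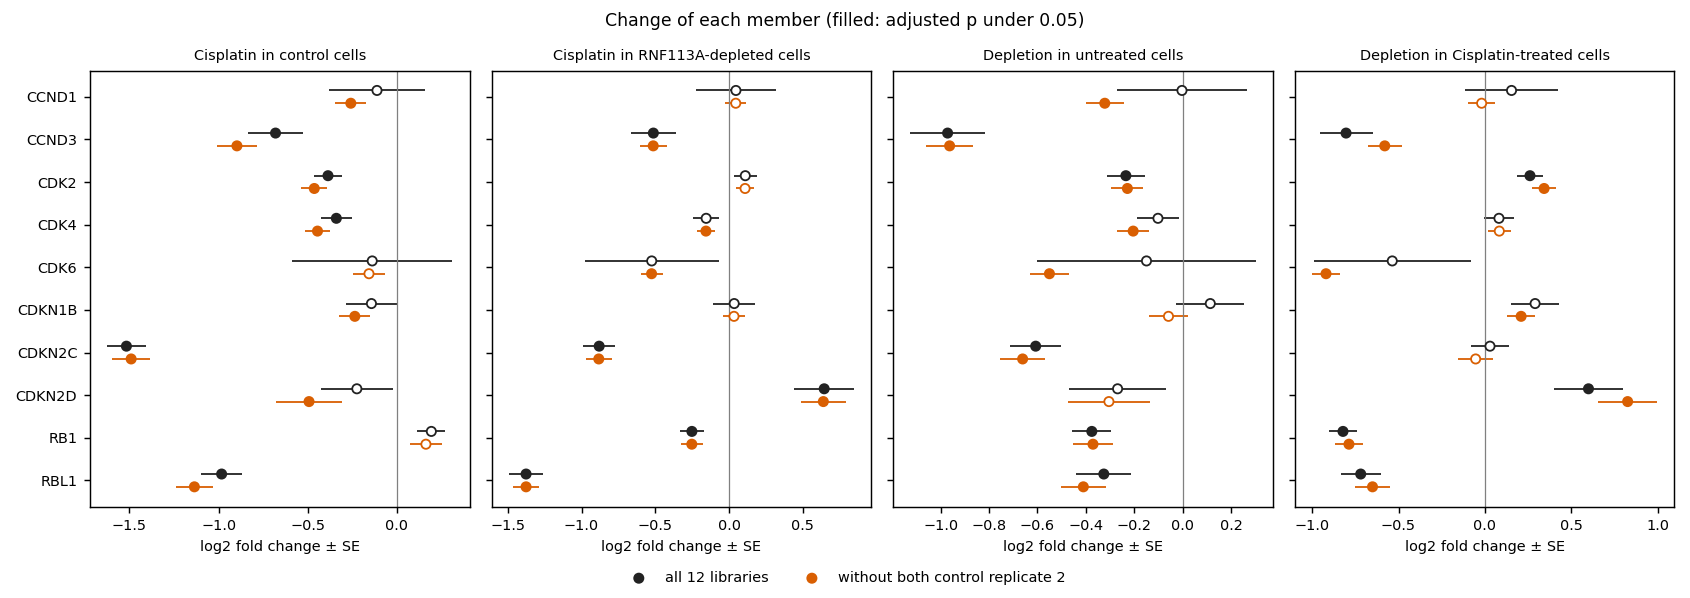
Log2 fold change ± SE of each member (horizontal axes) in the 4 comparisons of 2 conditions, from edgeR with all 12 libraries (black) and without both control replicate 2 libraries (orange); filled points have an adjusted p under 0.05. The error bars of CDK6 and CCND1 shrink without those libraries, and CDK6 is then called in 3 of the 4 comparisons.

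In depleted cells, Cisplatin lowered CCND3, CDKN2C, RB1 and RBL1 and raised CDKN2D, so that 5 of 10 members passed, beside 60.2% of all genes (27.8% lower and 32.4% higher). RBL1 fell furthest, from 49.8, 48.6 and 48.9 CPM to 17.8, 21.4 and 17.6 CPM (log2 -1.38 ± 0.12, adjusted p = 9.68e-07). It was the only member past a 2-fold change here, a rule that 23.1% of all genes met. CDKN2C went from 20.1, 21.7 and 20.0 CPM to 9.79, 11.6 and 12.2 CPM (log2 -0.88 ± 0.11, adjusted p = 2e-05). The conditions were far apart for both genes. CCND3 went from 280.2, 277 and 255 CPM to 209, 204 and 155 CPM (log2 -0.51 ± 0.15, adjusted p = 0.0115). RB1 went from 51.0, 47.8 and 48.9 CPM to 40.1, 45.4 and 38.4 CPM (log2 -0.25 ± 0.08, adjusted p = 0.0164). Neither overlapped. CDKN2D rose from 5.51, 5.75 and 5.81 CPM to 8.30, 6.86 and 11.6 CPM (log2 0.64 ± 0.20, adjusted p = 0.015), with replicate 3 the highest treated library. The call of RB1 was also lost without untreated depleted replicate 1, and with library size in place of TMM scaling (adjusted p = 0.141). Without Cisplatin-treated depleted replicate 3, the changes of CCND3, RB1 and CDKN2D no longer passed, which left 2 members, CDKN2C and RBL1, beside 53.1% of all genes. CDK6 went from 91.4, 89.7 and 80.9 CPM to 59.2, 67.0 and 55.9 CPM, and every treated library was lower. Its log2 difference of -0.52 ± 0.45 did not pass with all libraries (adjusted p = 0.337), in a test whose spread is estimated from all 12 libraries. Without both control replicate 2 libraries it was -0.53 ± 0.07 (adjusted p = 9.64e-06). CDK4, at 205, 207 and 213 CPM before and 192, 177 and 192 CPM after the drug, also passed then (log2 -0.16 ± 0.06, adjusted p = 0.025).

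Over both shRNAs together, Cisplatin lowered CCND3, CDK4, CDKN2C and RBL1 and raised none of the 10. In this fit 66.8% of all genes passed and 32.1% were lower. CDKN2C and RBL1 fell at least 2-fold, a size of change that 21.5% of all genes reached. The log2 fold changes were -0.60 ± 0.11 for CCND3 (adjusted p = 0.000234), -0.25 ± 0.07 for CDK4 (adjusted p = 0.00494), -1.20 ± 0.12 for CDKN2C (adjusted p = 8.73e-07) and -1.18 ± 0.10 for RBL1 (adjusted p = 1.8e-07). The median log2 fold change of the 10 members was -0.19, beside 0.03 over all genes tested. CDK6 joined them without both control replicate 2 libraries (log2 -0.38 ± 0.08, adjusted p = 0.000725).

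The second question was what depletion of RNF113A changed. In untreated cells it lowered CCND3, CDK2, CDKN2C, RB1 and RBL1 and raised none, 5 of 10 members beside 27.4% of all genes (14.6% lower). CCND3 fell most, from 509, 537 and 546 CPM in control to 280.2, 277 and 255 CPM in depleted cells (log2 -0.97 ± 0.15, adjusted p = 0.000732). CDKN2C was 29.0 to 32.6 CPM in control and 20.0 to 21.7 CPM in depleted libraries (log2 -0.61 ± 0.10, adjusted p = 0.00129). RB1 was 59.7 to 67.5 CPM in control and 47.8 to 51.0 CPM in depleted libraries (log2 -0.38 ± 0.08, adjusted p = 0.00465). None of these ranges overlapped. CDK2 (log2 -0.24 ± 0.08, adjusted p = 0.0409) and RBL1 (log2 -0.33 ± 0.11, adjusted p = 0.0492) lay close to the threshold and were lost under several alternatives, among them the replicate block. No member changed 2-fold, a rule that 8.66% of all genes met.

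CCND1, CDK4 and CDK6 depended on control replicate 2. CDK6 had 91.4, 89.7 and 80.9 CPM in untreated depleted cells, which lay between replicate 2 of the control cells at 35.0 CPM and its replicates 1 and 3 at 133 and 123 CPM. Without both control replicate 2 libraries it was lower in depleted cells (log2 -0.55 ± 0.08, adjusted p = 4.82e-05), and so were CCND1 (-0.32 ± 0.08, adjusted p = 0.00387) and CDK4 (-0.20 ± 0.06, adjusted p = 0.0189). Of the members, 8 of 10 then passed, all of them lower, beside 41.8% of all genes that passed in either direction. CDKN1B and CDKN2D did not pass either way.

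In Cisplatin-treated cells, depletion lowered CCND3, RB1 and RBL1 and raised CDK2 and CDKN2D, 5 of 10 members beside 42.9% of all genes (21.8% lower and 21.1% higher). RB1 was 70.8, 76.6 and 71.6 CPM in control and 40.1, 45.4 and 38.4 CPM in depleted cells, the largest change of a member here (log2 -0.82 ± 0.08, adjusted p = 2.27e-05). CCND3 was lower with a log2 fold change of -0.80 ± 0.15 (adjusted p = 0.00144) and RBL1 with -0.72 ± 0.12 (adjusted p = 0.000514), and the groups overlapped for neither. CDK2 was at 76.1, 86.2 and 70.1 CPM in control and 90.0, 90.4 and 98.1 CPM in depleted cells (log2 0.26 ± 0.08, adjusted p = 0.0175), the opposite direction to that in untreated cells. CDKN2D was at 5.02, 7.63 and 4.96 CPM in control and 8.30, 6.86 and 11.6 CPM in depleted cells, which overlapped through replicate 2 of both (log2 0.60 ± 0.20, adjusted p = 0.0297). Leaving out replicate 1 or 3 of either Cisplatin-treated condition lost the calls of CDK2 and CDKN2D and left 3 members, beside 32.1% to 37% of all genes. No member changed 2-fold, a rule that 12.3% of all genes met. CDK6 was at 59.2, 67.0 and 55.9 CPM in depleted cells, again above control replicate 2 and below replicates 1 and 3. It was lower without both control replicate 2 libraries (log2 -0.92 ± 0.08, adjusted p = 2.59e-07), and CDKN1B was then higher (log2 0.21 ± 0.08, adjusted p = 0.0363), which made 7 members beside 55.6% of all genes.

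Over both treatments together, depletion lowered CCND3 (log2 -0.89 ± 0.11, adjusted p = 3.27e-05), RB1 (-0.60 ± 0.08, adjusted p = 0.000103), RBL1 (-0.52 ± 0.10, adjusted p = 0.000797) and CDKN2C (-0.30 ± 0.12, adjusted p = 0.0488). That is 4 of 10 members, beside 47.5% of all genes (24% lower). None changed 2-fold, which 11% of all genes did. The call of CDKN2C was lost on leaving out any of 7 of the 12 libraries. The median over the members was -0.15 and over all genes 0.00. CDK6 was called too without both control replicate 2 libraries (log2 -0.74 ± 0.08, adjusted p = 6.52e-06).

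The interaction asks whether depletion acted differently with and without the drug. It passed for CDK2, CDKN2C and RB1, 3 of 10 members beside 4.25% of all genes (1.98% with a higher and 2.27% with a lower value), and none with a 2-fold one, beside 1.28%. For CDK2 it was 0.50 ± 0.11 on the log2 scale (adjusted p = 0.0285): its mean was 101 CPM untreated and 77.5 CPM treated in control but 86.0 and 92.8 CPM in depleted cells. For CDKN2C it was 0.64 ± 0.15 (adjusted p = 0.0366): the gene stood lower in untreated depleted than in untreated control cells, at means of 20.6 and 31.4 CPM, and both fell to the same range under Cisplatin, at 11.2 and 11.0 CPM. For RB1 it was -0.45 ± 0.11 (adjusted p = 0.0467): with Cisplatin it went from 59.7 to 67.5 CPM up to 70.8 to 76.6 CPM in control cells and from 47.8 to 51.0 CPM down to 38.4 to 45.4 CPM in depleted cells. All 3 were called more firmly without both control replicate 2 libraries, at adjusted p = 0.0012, 0.00748 and 0.022, and CDK4, CDK6 and CDKN2D then passed as well, which made 6 members beside 17% of all genes. Of these, CDKN2D was then past a 2-fold value (log2 1.13 ± 0.24, adjusted p = 0.00521), beside 522 of 15459 genes. The fit with all libraries ignores that the control replicate 2 libraries deviated together. With the replicate number as a block among the control libraries, CDK6 (log2 -0.41 ± 0.11, adjusted p = 0.0232) and CDKN2D (0.89 ± 0.25, adjusted p = 0.0272) passed too, which made 5 members beside 16.3% of all genes. Without the block, leaving out 1 library lost each of the 3 calls in most cases, and with 8 of the 12 libraries left out in turn no member passed. In those 8 fits 1.09% to 3.02% of all genes passed.

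Ranked by mean level, the 4 conditions took an order that differed among the genes, although CCND3 shared its order with CDK6 and CDK4 with CDKN2C. RBL1 and RB1 differed between all neighbouring conditions without overlap, in the order untreated control, untreated depleted, Cisplatin-treated control and Cisplatin-treated depleted for RBL1, and Cisplatin-treated control, untreated control, untreated depleted and Cisplatin-treated depleted for RB1. CCND3 followed the order untreated control, Cisplatin-treated control, untreated depleted, Cisplatin-treated depleted. Its middle pair overlapped, at 278 to 427 and 255 to 280.2 CPM. For CCND1, CDKN1B and CDKN2D no neighbouring conditions were apart.

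The members past a 2-fold change in a comparison of 2 conditions were set beside the genes of most similar pattern. For CDKN2C these were LARGE, CENPA and SNX30, with Pearson r of 0.98, 0.98 and 0.97 over the 12 libraries, and for RBL1 CHN1, LDLRAD3 and CAMK2D, with r of 0.99 each. These values describe the 12 libraries, which share the 4 conditions and their depth.

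Among the direct partners, CDKN1A rose furthest under Cisplatin. It was at 70.5 to 125 CPM in untreated control and 1858 to 2199 CPM in treated control libraries, and at 119 to 123 and 1038 to 1078 CPM in depleted libraries (log2 3.75 ± 0.23 over both shRNAs, adjusted p = 8.51e-09). Its ranges were far apart, and the rise differed between the shRNAs, with an interaction of -1.25 ± 0.22 (adjusted p = 0.0134). E2F1, the factor that RB1 restrains, fell from a mean of 88.3 to 33.8 CPM in control and from 78.5 to 51.0 CPM in depleted cells (log2 -1.01 ± 0.15, adjusted p = 3.43e-05). Its interaction of 0.76 ± 0.20 did not pass with all libraries (adjusted p = 0.0538) and passed without both control replicate 2 libraries (1.01 ± 0.10, adjusted p = 5.38e-05). The E-type cyclins CCNE1 and CCNE2, which activate CDK2, were higher on depletion over both treatments, with log2 fold changes of 0.54 ± 0.12 (adjusted p = 0.00255) and 0.75 ± 0.14 (adjusted p = 0.000669). CCNE1 had an interaction of 0.68 ± 0.15 (adjusted p = 0.0256), its means being 44.6 and 36.9 CPM without and with Cisplatin in control cells and 51.2 and 68.0 CPM in depleted cells; this call was lost on leaving out any of 10 of the 12 libraries. CCNE2 was at a mean of 9.92 CPM in Cisplatin-treated control and 21.1 CPM in Cisplatin-treated depleted cells (log2 1.09 ± 0.14, adjusted p = 0.000126), and its interaction passed without both control replicate 2 libraries (0.88 ± 0.13, adjusted p = 0.000693) but not with all (0.68 ± 0.20, adjusted p = 0.0727). RBL2 (p130), the third pocket protein, was slightly lower with Cisplatin (log2 -0.23 ± 0.07, adjusted p = 0.0066), a call lost with library size in place of TMM (adjusted p = 0.127), and did not pass for depletion over both treatments.

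Of 43 other genes of the G1 and RB pathway, 39 were tested. Cisplatin raised 10 and lowered 18 over both shRNAs, beside 66.8% of all genes that passed and 32.1% that were lower. The list's median was -0.18 on the log2 scale, that of all genes 0.03. The largest rises, beside CDKN1A, were E2F7 (4.50-fold, adjusted p = 1.95e-09), an E2F member that represses, and FBXW7 (log2 1.97 ± 0.09, adjusted p = 4.75e-10), the ubiquitin ligase subunit that takes up cyclin E. The largest falls, beside E2F1, were E2F2 (log2 -1.76 ± 0.12, adjusted p = 2.43e-08) and LIN52 (log2 -1.07 ± 0.09, adjusted p = 3.21e-07), a subunit of the DREAM complex that holds RBL1 and RBL2. Over both treatments, depletion raised 7 and lowered 10, beside 47.5% of all genes that passed and 24% that were lower, and none of the 39 changed 2-fold. On depletion of Cisplatin-treated cells CCNE2 was the 1 gene of the list past a 2-fold change.

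Of 30 genes that E2F factors drive for entry into S phase, Cisplatin lowered 25, 9 of them at least 2-fold, and raised PCNA, beside 32.1% of all genes that were lower and 21.5% that changed at least 2-fold. The median log2 fold change was -0.67 beside 0.03 over all genes. MCM6 and MCM5, subunits of the replicative helicase, fell most together with POLA1, a DNA polymerase subunit. MCM6 had a log2 fold change of -2.07 ± 0.12 (adjusted p = 6.37e-09), POLA1 -1.91 ± 0.14 (adjusted p = 4.35e-08) and MCM5 -1.72 ± 0.07 (adjusted p = 2.97e-10). Over both treatments, depletion lowered 13 and raised POLE and UHRF1, none 2-fold, beside 47.5% of all genes that passed and 24% that were lower. Without both control replicate 2 libraries it lowered 20 and raised 1, while the share of all genes that passed in either direction was 54.5%.

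**Figure D3:**
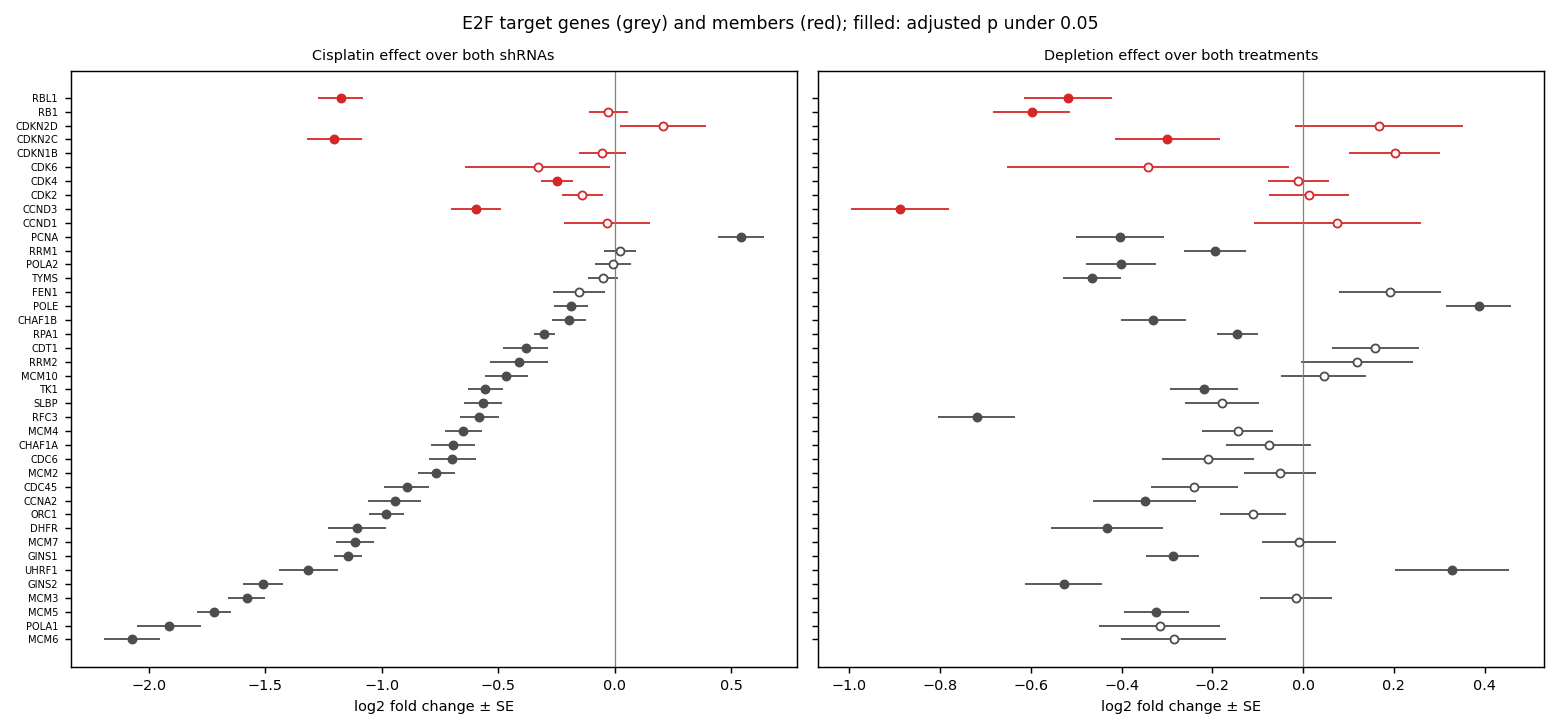
Log2 fold change ± SE over both shRNAs for Cisplatin (left) and over both treatments for depletion (right) for 30 E2F target genes (grey) and the 10 members (red); filled points have an adjusted p under 0.05. With Cisplatin 25 of the 30 targets are filled and lie below 0, from -0.19 to -2.07, with RBL1 at -1.18 and CDKN2C at -1.20.

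RBL1 is itself known as an E2F target, and the base letters of its promoter are shown for that reason. Windows from 250 bases before to 50 after a start site were searched on both strands for the letters TTTCCCGC, TTTGGCGC, TTTCGCGC and TTTGCCGC as E2F sites, TTTGAA as cell cycle homology region and TGANTCA as AP-1 site. RefSeq windows of GRCh38.p14 were given for 8 of the 10 members, and RBL1 was the one with E2F letters, beside 3.31% of 35116 windows of all genes. It had 2 matches, which did not overlap and began 26 and 16 bases before the start site. The stretch at chr20:37095986-37096043 (GRCh38.p14, minus strand) reads as follows from 5′ to 3′, with both matches in capitals.
RBL1 promoter: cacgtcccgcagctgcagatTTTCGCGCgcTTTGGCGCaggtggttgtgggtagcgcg
No window given for CDKN2C, CDK4, CDK6, CCND3, CDKN1B or CDKN2D held any of these letters. The window given for RB1, which lies inside the gene, held 1 AP-1 match, beside 7.71% of all windows. Some windows of other members had start sites inside the gene as well. They lay 1347, 108227 and 110830 bases from the gene start for CCND3, 7961 and 9500 for CDKN2C and 2614 for CDK6.

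The third measurement was splicing, the process RNF113A takes part in. Reads that lay at least partly in introns were compared with reads within exons for each gene, and the ratio of the 2 was tested. Their share of all genic reads was 4.33% to 4.82% in untreated control, 4.67% to 7.19% in Cisplatin-treated control, 5.76% to 6.65% in untreated depleted and 9.99% to 10.4% in Cisplatin-treated depleted libraries, over the 9557 genes tested. Of the members, 9 were tested; CDKN2D was left out with 1 to 18 intronic reads per library. Genes whose exonic reads fall keep a larger intronic share for the same number of intronic reads, so intronic reads are given as well. These reads are not scaled by depth, which was lowest in the Cisplatin-treated depleted libraries. Assigned read pairs were 26220526 to 30806147 there and 37808692 to 45721152 in Cisplatin-treated control libraries. Unscaled ranges that overlap or fall in the former do not show that scaled ones did.

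Depletion of Cisplatin-treated cells raised the ratio in CCND1, CCND3, CDK2, CDK4, CDK6, RB1 and RBL1, 7 of 9 members tested, beside 88.2% of all genes. CCND1 rose furthest: intronic reads were 2.23%, 2.00% and 3.66% of its genic reads in control and 7.59%, 6.81% and 8.32% in depleted libraries (log2 1.63 ± 0.22, adjusted p = 6.9e-06). The lowest depleted library thus stood above the highest control library, at 705 to 804 against 181 to 605 intronic reads, while its level in CPM was not called. RB1 had 4.69%, 2.71% and 4.82% in control and 9.57%, 8.34% and 9.29% in depleted libraries (log2 1.26 ± 0.21, adjusted p = 3.85e-05). CDK4 had 1.98%, 1.04% and 2.78% in control and 4.23%, 4.41% and 4.99% in depleted libraries (log2 1.33 ± 0.26, adjusted p = 0.000148). RBL1 had 2.98% to 3.21% in control and 5.58% to 7.65% in depleted libraries (log2 1.06 ± 0.22, adjusted p = 0.000241), at 31 to 50 and 34 to 40 intronic reads. CDK6 had 3.27%, 8.14% and 3.94% in control, where replicate 2 was the library with few exonic reads, and 8.63%, 8.44% and 11.5% in depleted libraries (log2 1.09 ± 0.28, adjusted p = 0.00148). CDK2 overlapped, at 2.60% to 5.24% in control and 4.94% to 8.19% in depleted libraries (log2 0.85 ± 0.24, adjusted p = 0.00307). In control and depleted libraries, intronic reads were 88 to 169 and 104 to 132 for RB1 and 77 to 225 and 256 to 261 for CDK4. They were 125 to 223 and 171 to 197 for CDK6 and 94 to 179 and 134 to 253 for CDK2. CCND3 had 245 to 368 in control and 182 to 267 in depleted libraries, so its unscaled number of intronic reads did not rise in these libraries of lower depth. CDKN1B (log2 0.46 ± 0.21, adjusted p = 0.0511) and CDKN2C did not pass. The median log2 change was 1.06 over the 9 members and 0.96 over all genes, so the members stood near the rest of the genes.

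**Figure D4:**
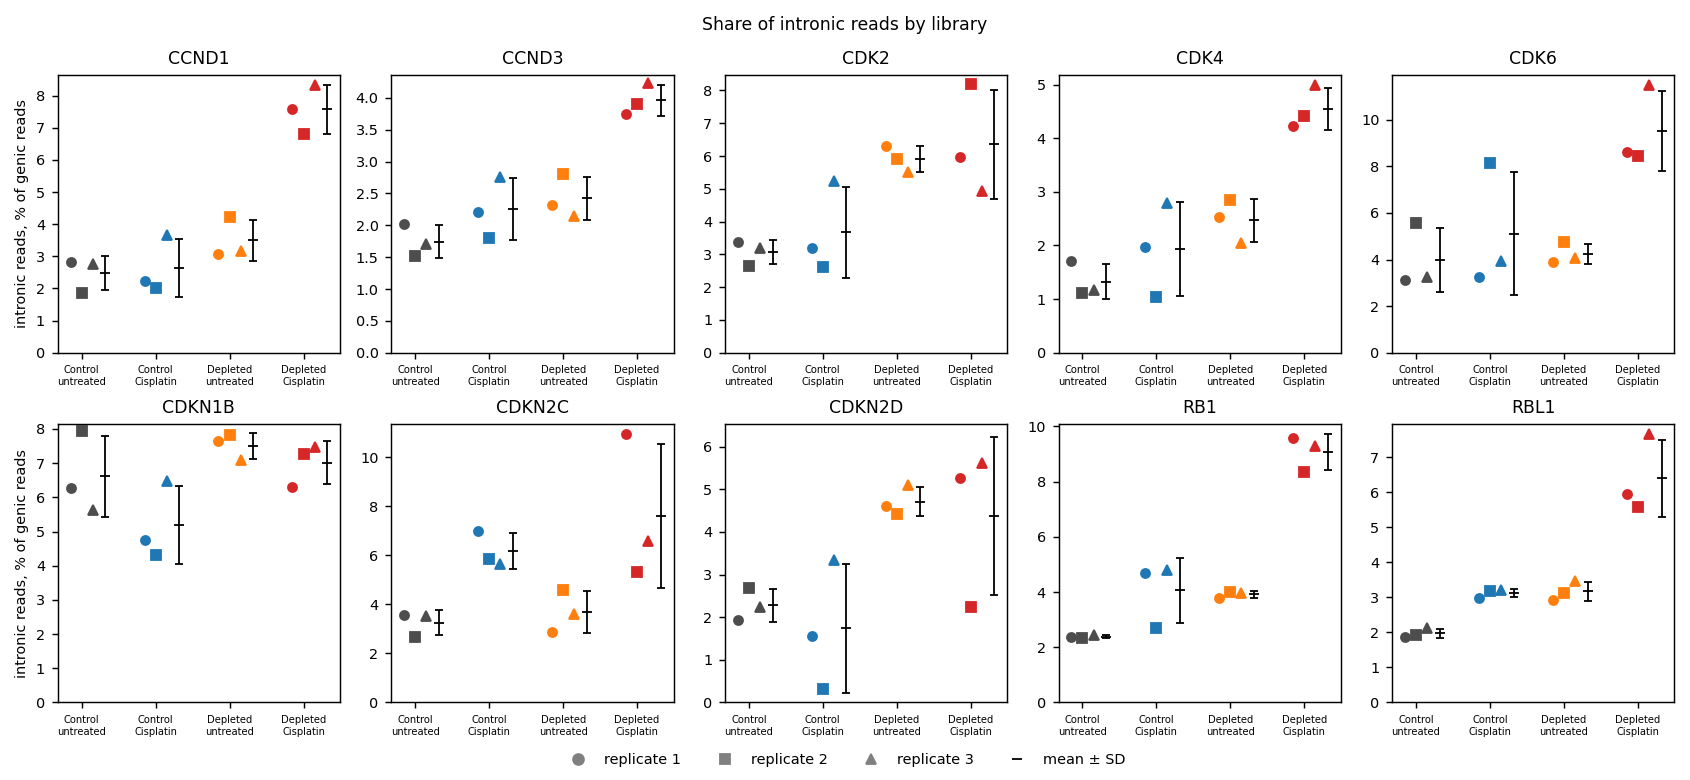
Intronic reads as percent of genic reads (vertical axes, linear, from 0) for each member and library; symbols mark replicates and black bars the mean ± SD of each condition. In CCND1, CCND3, CDK4, CDK6, RB1 and RBL1 the 3 Cisplatin-treated depleted libraries lie above all others, whereas the mean of CDK2 is higher in both depleted conditions.

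In untreated cells, depletion raised the ratio in CCND3, CDK2, CDK4, RB1 and RBL1, 5 of 9 members beside 34.3% of all genes. CDK2 rose most, from 2.65% to 3.37% in control to 6.31%, 5.90% and 5.51% in depleted libraries (log2 0.99 ± 0.24, adjusted p = 0.00893). The 3 depleted libraries were all higher, at 164 to 212 against 108 to 128 intronic reads. RB1 had 2.34% to 2.45% in control and 3.77% to 4.00% in depleted libraries (log2 0.74 ± 0.23, adjusted p = 0.0224), CDK4 1.11% to 1.70% and 2.04% to 2.84% (log2 0.92 ± 0.27, adjusted p = 0.017). RBL1 had 1.87% to 2.12% in control and 2.92% to 3.45% in depleted libraries (log2 0.70 ± 0.21, adjusted p = 0.0181). In control and depleted libraries, intronic reads were 56 to 60 and 65 to 75 for RB1 and 84 to 146 and 143 to 227 for CDK4. They were 41 to 50 and 56 to 59 for RBL1. CCND3 had fewer on depletion, at 322 to 377 in control and 181 to 301 in depleted libraries. The count of 5 members fell to 1 without control replicate 2 or depleted replicate 2 of the untreated cells; the call of CCND3 (adjusted p = 0.0475) was lost in most alternatives.

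Cisplatin raised the ratio in CDKN2C, RB1 and RBL1 of control cells, 3 of 9 members beside 18.5% of all genes, and in 7 of 9 members of depleted cells, beside 69.7%. In control cells CDKN2C went from 2.68% to 3.58% up to 5.64% to 7.01% (log2 0.96 ± 0.28, adjusted p = 0.0187), with 31 to 44 intronic reads before and 25 to 33 after, so the number of intronic reads did not rise. In depleted cells the 7 were CCND1, CCND3, CDK4, CDK6, CDKN2C, RB1 and RBL1. CDK2 was not among them: it had 5.97%, 8.19% and 4.94% with Cisplatin, beside 6.31%, 5.90% and 5.51% without (adjusted p = 0.724). Intronic reads of depleted cells were higher in every treated library for CCND1, CDK4, CDK6 and RB1. They overlapped for CCND3 and CDKN2C, and those of RBL1 went from 56 to 59 down to 34 to 40, again unscaled and at lower depth in the treated libraries. In control cells RB1 went from 56 to 60 up to 88 to 169 intronic reads, and RBL1 had 41 to 50 before and 31 to 50 after. The calls in control cells were lost when untreated control replicate 2 or Cisplatin-treated control replicate 1 was left out, which left 0 members, and rose to 5 without Cisplatin-treated control replicate 2.

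Single events were taken from the inclusion and skipping reads of the rMATS tables, which name the 3 libraries of a condition by order only and are given as a, b and c here. The members had 2 retained introns, in CDK2 and CDK4, and up to 55 skipped exon and 20 mutually exclusive exon events tested per comparison, and no alternative 5′ or 3′ splice site event was listed. No event of a member reached both an adjusted p under 0.05 and 20 points of difference in mean inclusion, in any of the 4 comparisons (edgeR). Of 301 tests of member events over the 4 comparisons, 6 had an adjusted p under 0.05. The 6 were the intron of CDK2 in 1 comparison, the intron of CDK4 in 2, mutually exclusive exons of CDK4 in 2 and a skipped exon of CCND3 in 1.

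The background differed by kind of event. Among retained introns, 17.4% of all events passed the adjusted p on depletion of untreated cells and 26% on depletion of Cisplatin-treated cells, against 0.493% with Cisplatin in control and 15.7% in depleted cells. With 20 points asked for as well, these shares were 0.99%, 2.37%, 0.087% and 1.12%. Among skipped exons, the adjusted p was passed by 0.0939%, 0.721%, 0.315% and 1.82% in the same order of comparisons, and both criteria by 0.0134%, 0.0569%, 0.0576% and 0.262%. Among mutually exclusive exons, the shares were 0.431%, 2.79%, 1.32% and 2.43% for the adjusted p and 0.00731%, 0.044%, 0.0812% and 0.135% for both. Changes of 20 points were thus rare among all events as well.

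The intron of CDK2 was the clearest event. It lies at chr12:56360909-56361640 (hg19, plus strand), is 732 bases long and joins coding exons 1 and 2 of the canonical transcript of 7 exons. Its borders are shown from 5′ to 3′, exon bases in capitals and intron bases in lower case, from chr12:56360889-56360948 and chr12:56361581-56361660.
CDK2 5′ splice site: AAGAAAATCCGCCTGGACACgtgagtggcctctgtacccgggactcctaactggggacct
CDK2 3′ splice site: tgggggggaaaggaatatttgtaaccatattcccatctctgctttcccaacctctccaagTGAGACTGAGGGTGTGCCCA
The intron thus has the usual gt and ag ends. Its inclusion was 5.61%, 5.47% and 4.66% in untreated control libraries a, b and c and 9.91%, 12.8% and 9.54% in untreated depleted ones. All depleted libraries were above all control libraries, at means of 5.25% ± 0.51 and 10.7% ± 1.78 (SD, n = 3). The difference passed the test over all retained introns (edgeR with a term for each library, adjusted p = 0.000405) and stayed between 0.000355 and 0.021 over the alternatives. In Cisplatin-treated cells the inclusion was 5.33%, 4.25% and 8.18% in control and 9.92%, 13.9% and 6.43% in depleted libraries, which overlapped (adjusted p = 0.0695). The comparisons of Cisplatin with no drug did not pass in control (adjusted p = 0.962) or in depleted cells (adjusted p = 0.787). These reads come from the libraries of the intronic reads above, so they are not a second set of samples. The whole of CDK2 lies within the annotated span of PMEL on the other strand; PMEL had 69 to 198 genic reads per library and CDK2 2715 to 4083, and whether the event reads were split by strand is not given in the sources used here.

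CDK4 had a retained intron at chr12:58145126-58145282 (hg19, minus strand), 157 bases between coding exons 2 and 3 of its canonical transcript. Its borders are given in the same way, from chr12:58145243-58145302 and chr12:58145106-58145185.
CDK4 5′ splice site: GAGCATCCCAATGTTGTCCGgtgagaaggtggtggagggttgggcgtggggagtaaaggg
CDK4 3′ splice site: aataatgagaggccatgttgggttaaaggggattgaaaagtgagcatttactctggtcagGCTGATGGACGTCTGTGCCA
Its inclusion stayed low. It was 0.501%, 0.269% and 1.07% in Cisplatin-treated control and 1.13%, 1.45% and 1.13% in Cisplatin-treated depleted libraries, which lay close without overlap (adjusted p = 0.0385). The adjusted p ranged from 0.000748 to 0.203 over the alternatives, and the intron rested on 8 to 35 inclusion reads per library in this comparison. In untreated depleted cells it was 0.918%, 0.788% and 0.293%, so the rise with Cisplatin passed in depleted cells too (adjusted p = 0.0319, up to 0.323 over the alternatives). The mutually exclusive exons of CDK4 had a mean inclusion of 99.1% in Cisplatin-treated depleted cells, against 99.7% both in untreated depleted cells (adjusted p = 0.0117) and in Cisplatin-treated control cells (adjusted p = 0.0157). The skipped exon of CCND3, at chr6:41908108-41908323 (hg19), went from a mean inclusion of 97.6% to 99.8% when Cisplatin was added to depleted cells (adjusted p = 0.0122, up to 0.156 over the alternatives). These differences were small in points, and each of the calls of CDK4 and CCND3 was lost under at least 1 alternative.

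**Figure D5:**
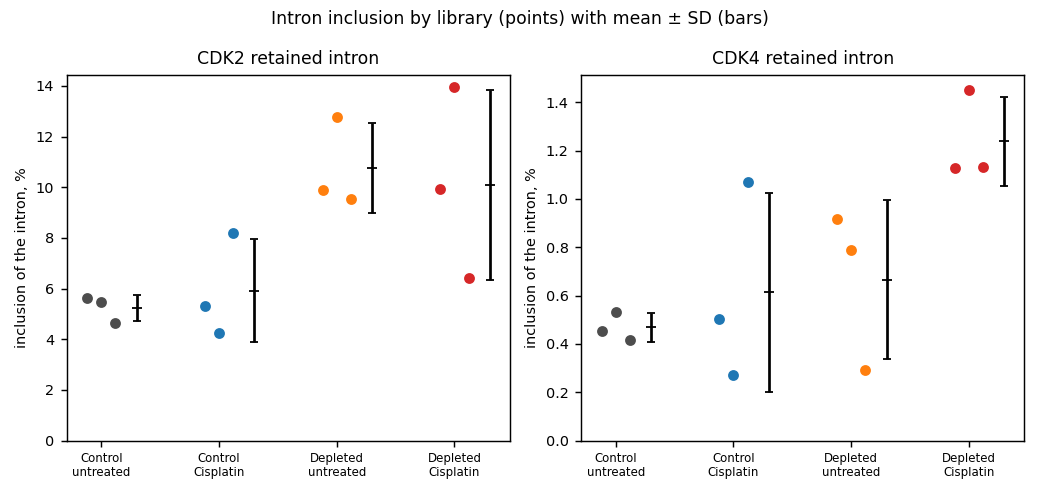
Inclusion of the retained introns of CDK2 (left) and CDK4 (right) in percent (vertical axes, linear, from 0, on different scales) in the 3 libraries of each condition (points), with mean ± SD (bars). For CDK2 the 3 untreated depleted libraries lie at 9.54% to 12.8%, above all control libraries; for CDK4 no library exceeds 1.45%.

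The members span genes of very different length. CDKN2D covers 2.60 kb, CDK2 6.02 kb, CDKN1B 7.31 kb and CDK4 8.29 kb, whereas RBL1 covers 99.6 kb, CCND3 115 kb, RB1 178 kb and CDK6 232 kb in hg19; CCND1 and CDKN2C lie between, at 13.4 and 13.9 kb. LPAR6 on the other strand lies within RB1. ORAOV1 overlaps CCND1, and TSPAN31 and MARCH9 overlap CDK4, all on the other strand as well.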

How the data were processed

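RNA of 12 A549 libraries was sequenced from stranded mRNA libraries in 2 runs. The authors trimmed the reads, removed ribosomal, transfer and mitochondrial RNA and mapped the rest to hg19; the submitters' processing notes name STAR 2.5.2b, bcl2fastq 2.17 and HTSeq. They deposited gene counts per library, HTSeq counts within exons and within genes, and rMATS tables with inclusion and skipping counts; their fold changes and p-values in those tables were not used.

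Strand-specific counts of 26334 genes were tested with edgeR 4.0.16 (R 4.3.3, TMM, filterByExpr with a smallest count of 10, quasi-likelihood test, Benjamini-Hochberg adjustment over all 15352 genes tested). An additive model gave both overall effects and a model with an interaction the other comparisons. "Called", "rose", "fell", "higher" and "lower" mean an adjusted p under 0.05. Intronic reads are genic minus exonic reads; genes with under 10 intronic or under 10 exonic reads in any library, or with fewer genic than exonic reads in a library (1086 genes), were left out, and the ratio was tested in edgeR with a term for each library, as were inclusion and skipping counts. The scripts were tested on simulated data. Alternatives were DESeq2 1.42.0, other scaling, other filters, unstranded counts, a replicate block and each library left out.

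Named genes were RNF113A, the members, 7 direct partners and the 3 largest rises and falls of each list. The members, lists and tests were chosen with earlier results of these data known. Deviations of same-numbered control libraries correlated across treatments at 0.63, 0.73 and 0.48 for replicates 1, 2 and 3. Untreated replicate 1 with treated replicate 3 had 0.59, and untreated replicate 3 with treated replicate 1 had 0.54. The numbers thus set apart replicate 2 of the control cells but did not pair replicates 1 and 3. In depleted cells the same numbers correlated across treatments at 0.41, -0.07 and 0.30, while untreated 1 with treated 3 had -0.45 and untreated 3 with treated 1 had -0.34. Depleted replicates 1 and 3 thus matched by number more than crosswise, and replicate 2 did not match. Between control and depleted cells the same numbers had -0.20 to 0.14.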

Additional observations from a re-analysis of the deposited data

Results flagged for a closer look

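For 3 members the effect of depletion differed between untreated and Cisplatin-treated cells in the test of that difference, edgeR's interaction term with Benjamini-Hochberg adjustment over all genes. On the log2 scale the interaction was 0.50 for CDK2, 0.64 for CDKN2C and -0.45 for RB1. CDK2 was lower on depletion in untreated cells and higher in Cisplatin-treated cells, CDKN2C was lower in untreated cells and had means of 11.2 and 11.0 CPM in Cisplatin-treated depleted and control cells, and RB1 was lower in both and further apart with the drug. None of the changes reached 2-fold, and each call was lost on leaving out most single libraries.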

How the results depend on the processing

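With all libraries, asking also for a fold change of at least 2 left 2 members for Cisplatin over both shRNAs, 0 for depletion over both treatments, 0 for the interaction, 1 each for Cisplatin in control and in depleted cells, and 0 for depletion in untreated and in Cisplatin-treated cells. RBL1 with Cisplatin in control cells and the interaction of CDKN2D passed 2-fold without both control replicate 2 libraries. With no filter on low counts the interaction had 1 member, beside 2.43% of all genes, and depletion in untreated cells 3, beside 18.1%. The latter count was also 3 with library size in place of TMM, beside 27.2%, and with the replicate block, beside 29.5%. Without both control replicate 2 libraries the interaction had 6 members, Cisplatin in control cells 8 and depletion in untreated cells 8, beside 17%, 60.9% and 41.8% of all genes. Depletion over both treatments then lowered 20 E2F targets. The replicate block among the control libraries gave 5 members for the interaction, beside 16.3% of all genes, and made RB1 higher with Cisplatin in control cells. Leaving out 1 library gave 0 to 3 members for the interaction, 2 to 6 for Cisplatin in depleted cells, 3 to 5 for depletion in untreated and 3 to 6 in Cisplatin-treated cells, and 8 to 16 lower pathway genes for depletion. The share of all genes that passed moved as well. In the same order it was 1.09% to 9.95%, 52.8% to 64.8%, 17.2% to 30.8%, 32.1% to 50.2% and, for depletion over both treatments, 41% to 51%. Intronic ratios gave 0 to 5 members for Cisplatin in control cells and 1 to 5 for depletion in untreated cells when 1 library was left out, and 1 for the former with at least 50 intronic reads. Signs changed 97 times, 0 of them for a member called with all libraries. CCND1 with Cisplatin in control cells turned to 0.00094 with library size, and ranged from -0.43 to 0.10 with 1 library left out. For depletion in untreated cells CCND1 turned to 0.033 with library size and 0.065 with the replicate block (range -0.32 to 0.21), and CDK6 to 0.025 with that block (range -0.55 to 0.15). The interaction of CDK6 ranged from -0.81 to 0.013. The cause of these shifts was not tested. The 8 to 35 inclusion reads of the CDK4 intron limit its precision.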
